A study of Homo sapiens with 4 samples.

Results

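The genes described are 10 receptor chains through which an intestinal epithelial cell can sense cytokines, IFNAR1, IFNAR2, IFNLR1, IL10RB, IL22RA1, IL6R, IL6ST, OSMR, LIFR and IL4R. They were chosen by symbol, as receptors for type I and III IFN, IL-10, IL-22, IL-4 and the gp130 cytokines, with earlier results of these data known, and all 10 had a row among the 37515 Ensembl genes counted. Expression was measured by RNA-seq in Caco-2 cells, a human colorectal carcinoma line often taken to stand in for intestinal epithelium. All 4 libraries were made from cells grown for 15 days on transwell inserts, a porous support with separate apical and basal medium. Of these, 2 came from cells given 60 ng/ml IFNγ in the basal compartment for 3 h and 2 from control cells at 0 h, labelled unstimulated and given medium. The effect of IFNγ and that of the 3 h between the samplings cannot be told apart in this comparison. No gene was altered in the cells, and Caco-2 is 1 carcinoma line with none of the other cell types of the mucosa.

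Cytokine receptors of this kind are assembled from different chains, and the signalling chains bring Janus kinases together that phosphorylate STAT transcription factors. IFNAR1 with IFNAR2 binds type I IFN, IFNLR1 with IL10RB binds type III IFN, and IL22RA1 with IL10RB binds IL-22, a cytokine that acts on epithelia to maintain the barrier. IL6ST, known as gp130, is the shared signalling chain for IL-6, LIF and oncostatin M, which reach it with IL6R, LIFR or OSMR. IL4R pairs with IL13RA1 or IL2RG to bind IL-4, and with IL13RA1 for IL-13. None of these chains binds IFNγ itself, which uses IFNGR1 and IFNGR2.

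The libraries held 7171455 to 10365346 counts, so 1 CPM, the count scaled to library size, stood for 7.17 to 10.4 counts. Of 10 genes known to respond to IFNγ, 9 rose and all 10 had a positive log2 fold change (IRF1, 5.86). The 15 epithelial markers were all detected, with a summed level of 10660 and 11500 CPM in the unstimulated libraries and 12090 and 12780 CPM after IFNγ, and 6 of them rose (KRT8, KRT18, CDX2, CLDN3, CLDN4 and ALPI) and 2 fell (KRT19 and SI). The 12 leukocyte markers with a row summed to 16.4 and 18.2 CPM unstimulated and to 22.3 and 24.3 CPM after IFNγ. Most of this was CSF1R (7.40 to 10.2 CPM) and CD14 (3.51 to 8.87 CPM). These, LYZ and ITGAM had enough counts to be tested and did not pass, while PTPRC, a marker of leukocytes in general, had at most 2 counts in any library. The 9 stromal and endothelial markers with a row summed to 106 to 200.4 CPM in unstimulated and 140 to 181 CPM in IFNγ libraries. Most of this was COL1A1, a stromal marker, with 179 and 89.4 CPM unstimulated and 168 and 118 CPM after IFNγ. COL3A1, PDGFRB, LUM and VWF also had enough counts to be tested, and endothelial KDR was at 0 in every library. The part of these markers in the results below was not tested. The log2 fold change also moved with the GC content of a gene (Spearman rho = 0.436 across 14518 genes, which are not independent replicates), so for the chains, and the genes that passed in the paragraphs below, the value with this trend removed is given where it ended or added a call, turned the direction or moved the fold by over 1.5 times.

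After 3 h of IFNγ, IL4R transcripts rose 3.55-fold, IL6ST fell 2.03-fold and IFNLR1 fell 1.60-fold in the main fit. With the GC and length trend removed, IL6ST did not pass (edgeR adjusted p = 0.135) and no chain was called lower. The type I IFN receptor chains, the IL-22 receptor chains and IL6R did not pass the test in the main fit. OSMR was at the limit of detection before and after. Of the 9 chains with enough counts to be tested, 3 passed at a Benjamini-Hochberg adjusted p under 0.05 (edgeR's quasi-likelihood test), 1 higher and 2 lower, where 20.0% of the 14820 genes tested passed (9.02% higher and 11.0% lower). With an absolute log2 fold change above 1 required as well, IL4R was called higher and IL6ST lower, where 7.28% of all tested genes were called, 2.88% higher and 4.40% lower (427 and 652 genes, and 422 higher and 296 lower with the GC and length trend removed). The median log2 fold change was -0.022 over the 9 chains and -0.0073 over all tested genes. The normalized CPM of the groups did not overlap for 6 of the 9 chains, which was also so for 62.4% of all tested genes. In such bulk RNA, fewer cells that express a gene and less RNA per cell cannot be told apart. Nothing in the labels says that the 2 replicates of a group were separate cultures, so the p-values measure only the spread between these libraries.

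**Figure D1:**
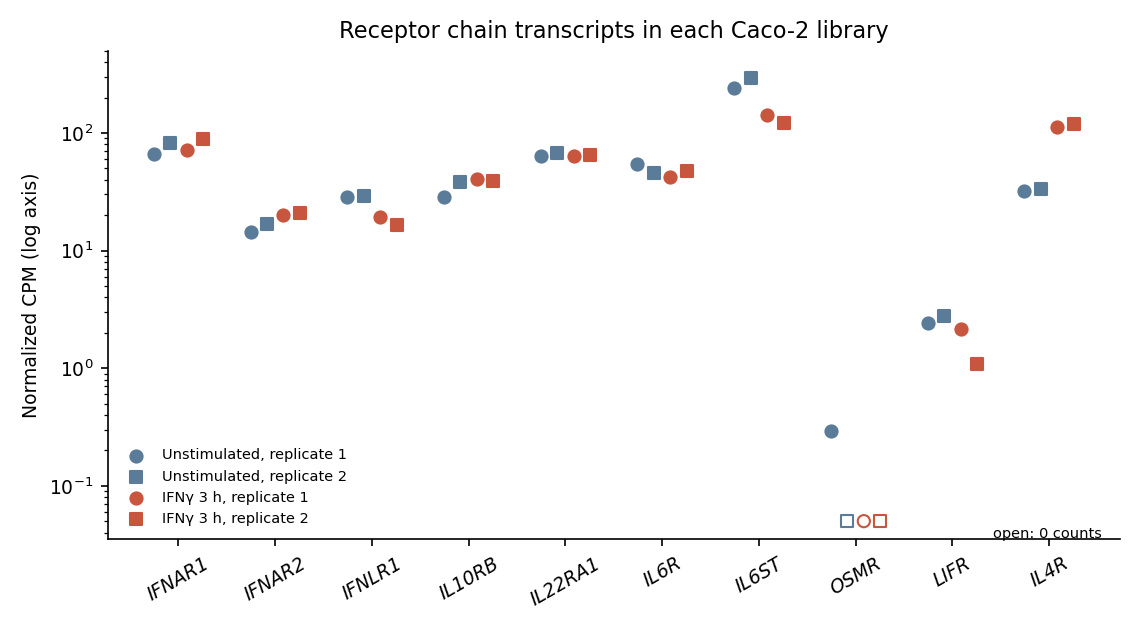
Normalized CPM on a log axis of each receptor chain in the 4 Caco-2 libraries, with blue for unstimulated, red for IFNγ at 3 h, circles for replicate 1, squares for replicate 2 and open symbols, drawn near the bottom of the axis, for 0 counts. Both IFNγ libraries lie above both unstimulated ones for IL4R (112 and 120 against 31.9 and 33.3 CPM) and below them for IL6ST (141 and 121 against 242 and 291 CPM).

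The sequences around the start of the 3 genes that passed are shown because promoters that respond to IFNγ often hold the gamma-activated sequence TTCNNNGAA. Each runs from 250 bases before the start to 50 after it (RefSeq, GRCh38.p14), 5′ to 3′ on the strand of the gene, and capitals mark a match. IFNLR1 is at chr1:24187240-24187539 on the minus strand, IL6ST at chr5:55994914-55995213 on the minus strand and IL4R at chr16:27313724-27314023 on the plus strand.
IFNLR1: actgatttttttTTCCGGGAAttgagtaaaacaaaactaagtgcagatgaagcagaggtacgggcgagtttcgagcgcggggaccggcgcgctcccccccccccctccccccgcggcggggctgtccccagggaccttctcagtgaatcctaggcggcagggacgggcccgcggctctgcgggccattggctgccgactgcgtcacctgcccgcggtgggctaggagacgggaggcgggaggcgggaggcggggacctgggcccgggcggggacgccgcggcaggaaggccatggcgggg
IL6ST: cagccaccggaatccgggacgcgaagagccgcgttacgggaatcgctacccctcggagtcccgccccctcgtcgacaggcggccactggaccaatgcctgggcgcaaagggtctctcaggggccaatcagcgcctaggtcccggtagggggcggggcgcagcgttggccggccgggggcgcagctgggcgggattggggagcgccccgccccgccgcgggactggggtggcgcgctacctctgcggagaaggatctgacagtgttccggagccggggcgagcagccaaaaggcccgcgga
IL4R: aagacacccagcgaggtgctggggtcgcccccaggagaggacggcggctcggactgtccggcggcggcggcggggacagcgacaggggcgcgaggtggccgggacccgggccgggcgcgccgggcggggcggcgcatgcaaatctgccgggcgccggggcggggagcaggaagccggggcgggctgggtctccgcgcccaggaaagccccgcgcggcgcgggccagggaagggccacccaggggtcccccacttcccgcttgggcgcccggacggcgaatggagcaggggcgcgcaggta
The only match in these 3 windows was TTCCGGGAA of IFNLR1, whose first base lies 238 bases before the start, and IL4R, the chain that rose, had none. RefSeq promoters were found for 9 of the 10 chains, in 12 windows. TTCNNNGAA, which reads the same on both strands, was in those of 3 chains. Of all 35116 promoters, counted by window and not by gene, 7.66% held it, so this share is not in the same unit as the count of chains. In IL10RB the match TTCCCGGAA lay after the start, and in LIFR, with 3 windows, TTCCTTGAA began 165 bases and TTCATCGAA 182 bases before 2 of its starts. TTCNNNNGAA, the spacing that STAT6 favours, was in 6.44% of all promoters and TTTCNNTTTC, the core of the element bound by ISGF3, in 3.57% searched on both strands. Neither set of letters was in the windows of the 9 chains, and a match or its absence is a description of these letters only.

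IL4R (ENSG00000077238) was the chain that rose. It encodes the subunit that binds IL-4 and recruits STAT6, and in GRCh37 it spans 27324989 to 27376099 of chromosome 16, plus strand. Its level was 31.9 and 33.3 CPM in the unstimulated libraries and 112 and 120 CPM in the IFNγ libraries, from 328, 238, 1147 and 880 counts. The IFNγ libraries were both far above the unstimulated ones, and the 2 values within each condition were close. The level went from 32.6 ± 0.994 (SD, n = 2) to 116 ± 6.01 CPM (SD, n = 2), a log2 fold change of 1.83 (standard error, SE, 0.124, edgeR adjusted p = 0.000466). The fold change was 3.55 with a 95% confidence interval of 2.90 to 4.34, and the log2 fold change was 1.80 between the replicate 1 libraries and 1.84 between those of replicate 2. Under the other settings it ran from 1.64, with the GC and length trend removed, to 1.87. An antisense RNA overlaps 5.6% of its exon bases, and the sources do not say if reads were assigned by strand.

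IL6ST (ENSG00000134352) encodes gp130, the chain that every IL-6 family receptor here needs for signalling. It lies on the minus strand of chromosome 5 from 55230923 to 55290850, where an antisense RNA overlaps 6.6% of its exon bases. It had 242 and 291 CPM unstimulated and 141 and 121 CPM after IFNγ. The conditions did not overlap, with 266 ± 34.7 (SD, n = 2) against 131 ± 14.6 CPM (SD, n = 2) and a log2 fold change of -1.02 (SE 0.141, edgeR adjusted p = 0.00412). The fold change was 0.492 (95% confidence interval 0.391 to 0.619), and the log2 fold change was -0.78 in replicate 1 and -1.27 in replicate 2. With 36.5% GC, IL6ST had the lowest GC content of the 10 chains. With the GC and length trend removed its log2 fold change was -0.33 (edgeR adjusted p = 0.135), which ended the call. Leaving out 1 library at a time gave -1.15 to -0.87, so the threshold of 2-fold was not always met.

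IFNLR1 (ENSG00000185436) encodes the chain that is specific to type III IFN and that limits this response largely to epithelial cells. It lies on the minus strand of chromosome 1 from 24480658 to 24514449. Its level was 28.3 and 28.9 CPM in the unstimulated libraries and 19.2 and 16.4 CPM after IFNγ, without overlap. From 28.6 ± 0.372 (SD, n = 2) to 17.8 ± 1.97 CPM (SD, n = 2), the log2 fold change was -0.68 (SE 0.157, edgeR adjusted p = 0.0232), and the fold change was 0.624 (95% confidence interval 0.484 to 0.805). IFNLR1 was lower in both pairs, with log2 fold changes of -0.56 in replicate 1 and -0.81 in replicate 2. Removing the GC and length trend gave -0.81, a value not drawn towards 0 as that of IL6ST was. Its call rested on both unstimulated libraries, since the adjusted p from edgeR was 0.0761 without unstimulated replicate 1 and 0.0537 without unstimulated replicate 2.

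**Figure D2:**
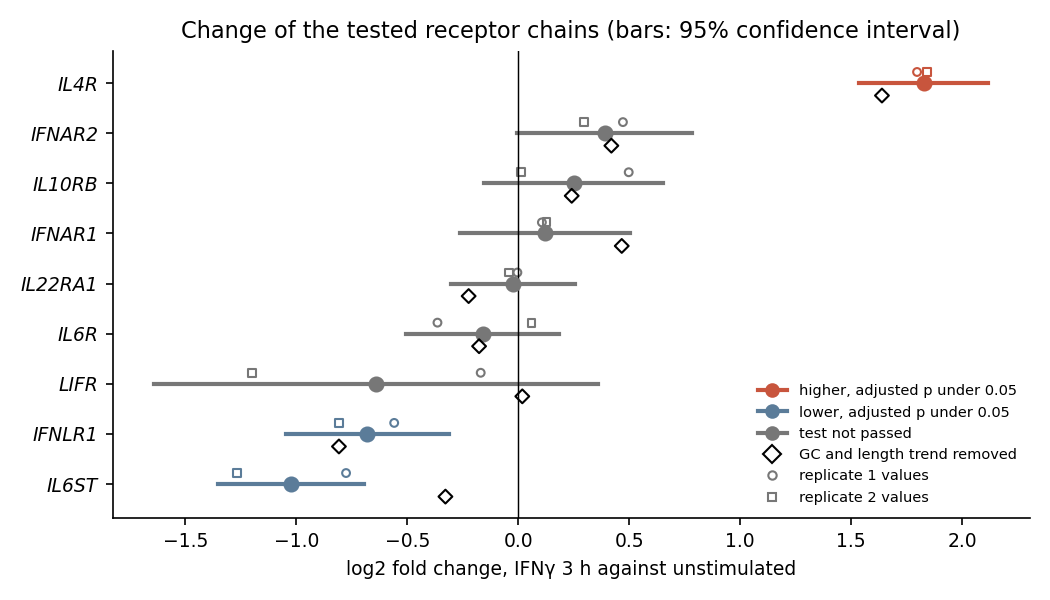
Log2 fold change of the 9 tested receptor chains between IFNγ at 3 h and unstimulated cells (filled points, bars for the 95% confidence interval, red for higher, blue for lower and grey for test not passed), with the values of the replicate 1 and replicate 2 pairs above (small open symbols) and the value with the GC and length trend removed below (open diamonds). IL4R stays far above 0 in each value, IFNLR1 stays below 0, and the diamond of IL6ST lies at -0.33 against -1.02 in the main fit.

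The chains of the type I IFN receptor were present before stimulation and did not pass the test in the main fit. With the GC and length trend removed and the replicate number added to the model as a block, both passed higher. The edgeR adjusted p was then 0.00346 for IFNAR1 and 0.0383 for IFNAR2. Under the other settings that kept all libraries, the log2 fold change of IFNAR1 ran from 0.077 to 0.47. IFNAR1 (chromosome 21, 34696692 to 34732170, plus strand), the chain that binds the kinase TYK2, had 66.0 and 81.7 CPM unstimulated and 71.1 and 89.2 CPM after IFNγ. The ranges overlapped, and the fold change was 1.09 with a 95% confidence interval of 0.833 to 1.42 (edgeR adjusted p = 0.647). In both conditions replicate 2 was higher than replicate 1. IFNAR2 (chromosome 21, 34577587 to 34637980, plus strand) encodes the chain that binds type I IFN with high affinity. It had 14.3 and 16.95 CPM unstimulated and 19.9 and 20.9 CPM after IFNγ. These values did not overlap, but the log2 fold change of 0.39 (SE 0.168) did not pass (edgeR adjusted p = 0.145), with a fold change interval of 0.997 to 1.72.

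IL10RB (chromosome 21, 34638672 to 34683725, plus strand) is the chain that the receptors for type III IFN, IL-10, IL-22 and IL-26 have in common. Its 4 values were 28.7 and 38.5 CPM unstimulated and 40.7 and 38.9 CPM after IFNγ, so that unstimulated replicate 2 stood beside the IFNγ libraries. The fold change was 1.19 with a 95% confidence interval of 0.900 to 1.57 (edgeR adjusted p = 0.342). IFNAR2 and IL10RB share 14.7% and 21.6% of their exon bases with an annotated gene that reads through from one to the other, which had no row and was not analysed here. IFNAR2 also overlaps IL10RB-DT on the opposite strand, which had 5 to 15 counts. How the authors' counting divided such reads is not known, so the levels of this pair are less certain than those of the other chains.

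IL22RA1 (chromosome 1, 24446261 to 24469630, minus strand), the chain that gives epithelial cells their response to IL-22, had the log2 fold change closest to 0 of the 9 tested in the main fit. Under the other settings that kept all libraries, its log2 fold change ran from -0.22 to 0.020. The values of IL22RA1 were 63.7 and 67.2 CPM unstimulated and 63.5 and 65.4 CPM after IFNγ, a fold change in the main fit of 0.985 with a 95% confidence interval of 0.812 to 1.19 (edgeR adjusted p = 0.915). It lies beside IFNLR1 on the same strand. IL6R (chromosome 1, 154377669 to 154441926, plus strand), which binds IL-6, had 54.1 and 45.5 CPM unstimulated and 42.0 and 47.5 CPM after IFNγ. The groups overlapped, and the fold change was 0.895 (95% confidence interval 0.705 to 1.14, edgeR adjusted p = 0.481).

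LIFR and OSMR, the other chains that pair with gp130, had few counts. LIFR (chromosome 5, 38474770 to 38608456, minus strand), the chain for LIF, had 25 and 20 counts unstimulated and 22 and 8 counts after IFNγ. This was 2.43 and 2.80 CPM against 2.14 and 1.09 CPM, with the lowest value in IFNγ replicate 2. The log2 fold change of -0.64 (SE 0.427, edgeR adjusted p = 0.328) had a wide interval, as the fold change lay between 0.321 and 1.28, and with the GC and length trend removed it was 0.018. OSMR (chromosome 5, 38845960 to 38945698, plus strand), the chain for oncostatin M, had 3 counts in unstimulated replicate 1 and 0 counts in the other 3 libraries. A count of 0 allows up to 3 counts, or 0.292 to 0.42 CPM in these libraries, which covers counting error only. No change of OSMR was detectable at this depth, and no fold change is given.

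Levels of different genes are set side by side here as CPM per kilobase of the canonical transcript. In unstimulated cells IL6ST (29.5) led, followed by IL22RA1 (23.2), IL10RB (17.3) and IFNAR1 (12.2). IL4R (9.01) and IL6R (8.65) came next and overlapped in range, and IFNLR1 (6.26) and IFNAR2 (3.84) were lower. LIFR (0.248) and OSMR (0.0264) were far below the others. After IFNγ IL4R (32.0) stood first by this length, ahead of IL22RA1 (22.9) and IL10RB (20.5). IL6ST (14.5) and IFNAR1 (13.2) then overlapped in range, and IL6R (7.76), IFNAR2 (5.01), IFNLR1 (3.89) and LIFR (0.153) followed, with OSMR at 0. The order depends on the length taken for a gene. With the summed length of all annotated exons, a choice made after the data were seen, IL10RB moved from the third to the seventh place in unstimulated cells, and IL22RA1 stood ahead of IL6ST (23.2 and 22.1). After IFNγ IL22RA1 (22.9) then stood ahead of IL4R (19.7), and IL10RB came in the sixth place.

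Because the receptors combine different chains, the ratio of the partner chains, each as CPM per kilobase, was taken within each library. Such a ratio does not depend on how libraries are scaled, but it can move with a GC and length trend, and with 2 libraries a group the exact permutation test, two-sided, cannot give a p below 0.333. The ratio of IL4R to IL13RA1, the partner usually named for epithelial cells, was 0.421 and 0.401 unstimulated and 1.22 and 1.30 after IFNγ. IL13RA1 itself, at 87.7 ± 5.58 and 101 ± 0.651 CPM (SD, n = 2 each), had a log2 fold change of 0.21 and did not pass (edgeR adjusted p = 0.243). To IL2RG, the common γ chain, IL4R had a ratio of 0.236 and 0.215 unstimulated and 0.605 and 0.599 after IFNγ. IL2RG had a log2 fold change of 0.41 (edgeR adjusted p = 0.0680). Per kilobase IL2RG stood above IL13RA1, at 40.1 against 21.9 unstimulated and 53.1 against 25.4 after IFNγ. Which partner IL4R uses in these cells was not tested. The groups did not overlap in either ratio, which differed by 1.62 and 1.42 on the log2 scale (exact permutation p = 0.333 each), and by 1.19 and 1.31 with the GC and length trend removed. With the summed length of all annotated exons IL4R stayed below IL13RA1, with a ratio of the group means of 0.294 unstimulated and 0.903 after IFNγ.

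For the type III IFN receptor, the ratio of IFNLR1 to IL10RB was 0.419 and 0.318 unstimulated and 0.200 and 0.179 after IFNγ. This was a difference of -0.95 on the log2 scale without overlap (exact permutation p = 0.333). The summed exon length gave ratios of the group means of 1.38 and 0.726, since IL10RB is then longer. IL22RA1, which shares IL10RB, had ratios of 1.53 and 1.20 against 1.08 and 1.16, a smaller difference of -0.28, also without overlap (exact permutation p = 0.333). IFNAR1 to IFNAR2 went from 3.09 and 3.23 to 2.39 and 2.87, again without overlap (exact permutation p = 0.333). This difference of -0.27 turned to 0.047 with the GC and length trend removed. Among the gp130 chains, IL6R to IL6ST was 0.350 and 0.245 unstimulated and 0.466 and 0.617 after IFNγ, a difference of 0.87 on the log2 scale without overlap (exact permutation p = 0.333). IL6R itself had a log2 fold change of -0.16 and IL6ST one of -1.02, and with the GC and length trend removed the difference was 0.15. LIFR to IL6ST was at most 0.0130 in any library and overlapped between the groups. The ratio of OSMR to IL6ST could not be compared, since 3 of the 4 libraries had 0 counts of OSMR.

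**Figure D3:**
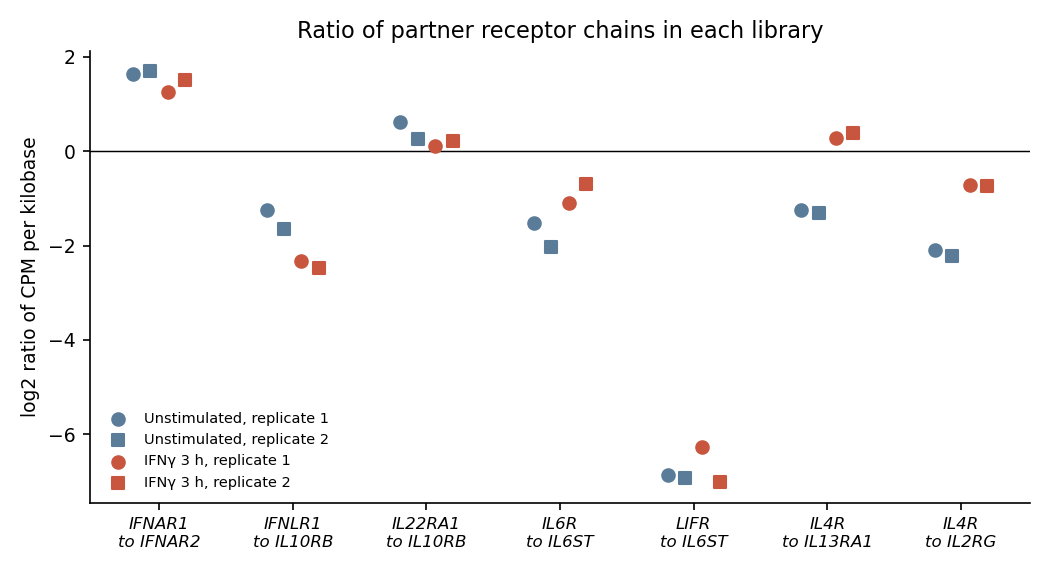
Log2 ratio of the CPM per kilobase of partner receptor chains in each library (blue for unstimulated, red for IFNγ at 3 h, circles for replicate 1 and squares for replicate 2), with the line at equal levels. The ratio of IL4R to IL13RA1 is higher after IFNγ (1.22 and 1.30 against 0.421 and 0.401) and that of IFNLR1 to IL10RB is lower, and where a ratio lies against the line depends on the transcript length used, since IL4R stays below IL13RA1 with the summed exon length (0.903 after IFNγ).

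Among 16 other receptor chains of these families, 7 had enough counts to be tested, and the chains of the IFNγ receptor itself were the ones that passed. IFNGR1, which binds IFNγ, rose from 93.9 and 118 to 176 and 186 CPM, a log2 fold change of 0.78 (SE 0.139, edgeR adjusted p = 0.00938). IFNGR2, its signalling partner, fell from 59.3 and 68.9 to 42.8 and 47.1 CPM (-0.51, SE 0.138, edgeR adjusted p = 0.0398). Neither passed the fold change threshold, which IFNGR1 did with the GC and length trend removed (1.12, edgeR adjusted p = 0.000947). IFNGR2 did not pass the test without unstimulated replicate 2 (-0.39, edgeR adjusted p = 0.176) or without IFNγ replicate 1 (-0.45, edgeR adjusted p = 0.112). IL11RA, with a log2 fold change of -0.20, and IL27RA, with 0.23, did not pass. The 9 chains that were not tested had at most 9 counts in any library, among them IL10RA (at most 3 counts), IL20RA (at most 1) and IL20RB (at most 9), the other chains of the IL-10 family receptors.

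Of 23 ligands of these receptors 18 had a row and 3 were tested, and of those 2 rose, both of the gp130 family. CLCF1, a ligand of the ciliary neurotrophic factor receptor, had 9 counts in each unstimulated library and 98 and 71 counts after IFNγ. This was 0.876 and 1.26 against 9.53 and 9.69 CPM, a 9.10-fold rise (95% confidence interval 5.42 to 15.3, edgeR adjusted p = 0.00154). LIF rose from 13.7 ± 1.05 to 25.4 ± 0.325 CPM (SD, n = 2 each), a log2 fold change of 0.90 (edgeR adjusted p = 0.00901). The level of its receptor chain LIFR stayed under 3 CPM in the same libraries. The ligands that were not tested had at most 12 counts in any library, and IL6 had 0 counts in all 4.

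Of 11 genes for kinases, STATs and IRF9 that these receptors signal through, 9 were tested, and 2 rose while the other 7 did not pass. STAT3, the main STAT downstream of gp130 and the IL-22 receptor, rose from 93.0 and 98.8 to 216 and 206 CPM, a log2 fold change of 1.14 (SE 0.112, edgeR adjusted p = 0.00152). STAT5A rose from a low level of 3 to 8 counts to 21 counts in each IFNγ library (1.93, edgeR adjusted p = 0.0329), and it did not pass when any 1 library was left out (1.63 to 2.48). STAT6, which IL4R uses, had a log2 fold change of 0.34 (edgeR adjusted p = 0.120). The values were 0.47 for STAT2, 1.43 for IRF9, 0.36 for JAK1, -0.32 for JAK2 and -0.17 for TYK2, none of which passed. The median of the tested genes was 0.36.

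All 20 genes for inhibitors and turnover of these receptors were tested, of which 2 rose and 5 fell, with a median log2 fold change of 0.057. SOCS3, which binds gp130 and blocks its signalling, rose from 6.82 and 6.72 to 14.5 and 11.1 CPM (log2 fold change 0.92, edgeR adjusted p = 0.0280). PTPN1, a phosphatase that acts on JAK2 and TYK2, rose from 65.5 and 69.3 to 161 and 185 CPM (1.36, edgeR adjusted p = 0.00127). PIAS1, an inhibitor of STAT proteins, fell from 44.01 and 39.1 to 16.6 and 16.9 CPM (-1.31, edgeR adjusted p = 0.00225). SOCS5 (-0.76), PTPN2 (-0.65) and PTPN11 (-0.56) also fell, as did ADAM10 (-0.50), a protease that sheds IL6R from the cell surface. With the GC and length trend removed PIAS1 still fell, by less than the threshold of 2-fold (-0.83, edgeR adjusted p = 0.00905), but SOCS5 (-0.23), PTPN2 (-0.30) and PTPN11 (-0.22) no longer passed and ADAM10 turned to 0.19 (edgeR adjusted p = 0.415). SOCS3 was then 0.71 (edgeR adjusted p = 0.0601), and it did not pass without unstimulated replicate 1 or IFNγ replicate 1. SOCS1 had 1 and 4 counts unstimulated and 14 and 12 after IFNγ, and did not pass (edgeR adjusted p = 0.0597).

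The targets of these receptors were counted in 3 lists of unlike size, chosen with earlier results of these data known. Of all tested genes 20.0% passed, 9.02% higher and 11.0% lower. Of 20 such genes outside the 10 chains, 13 were tested, 5 rose and 3 fell, with a median log2 fold change of 0.61. BCL3 (1.03), BCL2L1 (1.36), JUNB (0.87) and CEBPB (0.64) rose, and the kinase PIM1 fell from 64.7 and 65.4 to 26.7 and 31.2 CPM (-1.17, edgeR adjusted p = 0.00267). The fibrinogen chains did not move together, as FGA rose by 0.61 on the log2 scale while FGB (-0.76) and FGG (-0.72) fell. With the GC and length trend removed FGB (-0.46), FGG (-0.28), CEBPB (0.41) and JUNB (0.64) kept their direction and no longer passed, and BCL3 passed at 0.79, under the threshold of 2-fold. Without unstimulated replicate 1 FGA (0.41), CEBPB (0.63), JUNB (0.78) and TGM2 (0.50) did not pass, and CEBPB did not without unstimulated replicate 2 (0.67) or IFNγ replicate 2 (0.41) either. Of 20 targets of ISGF3, the complex formed by type I and III IFN, 15 were tested and 3 rose, all of the IFIT family (IFIT2, 1.67, IFIT3, 1.74, and IFIT5, 4.05), with a median of 0.43. The value of IFIT5, which had 5 and 9 counts unstimulated, was 3.43 without unstimulated replicate 1 and 4.80 without unstimulated replicate 2. Of 13 targets of STAT6 6 were tested, and TGM2, tissue transglutaminase, rose from 111 and 134 to 193 and 187 CPM (0.64, edgeR adjusted p = 0.0145). Other factors, among them NFκB, can also induce genes of these lists.

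**Figure D4:**
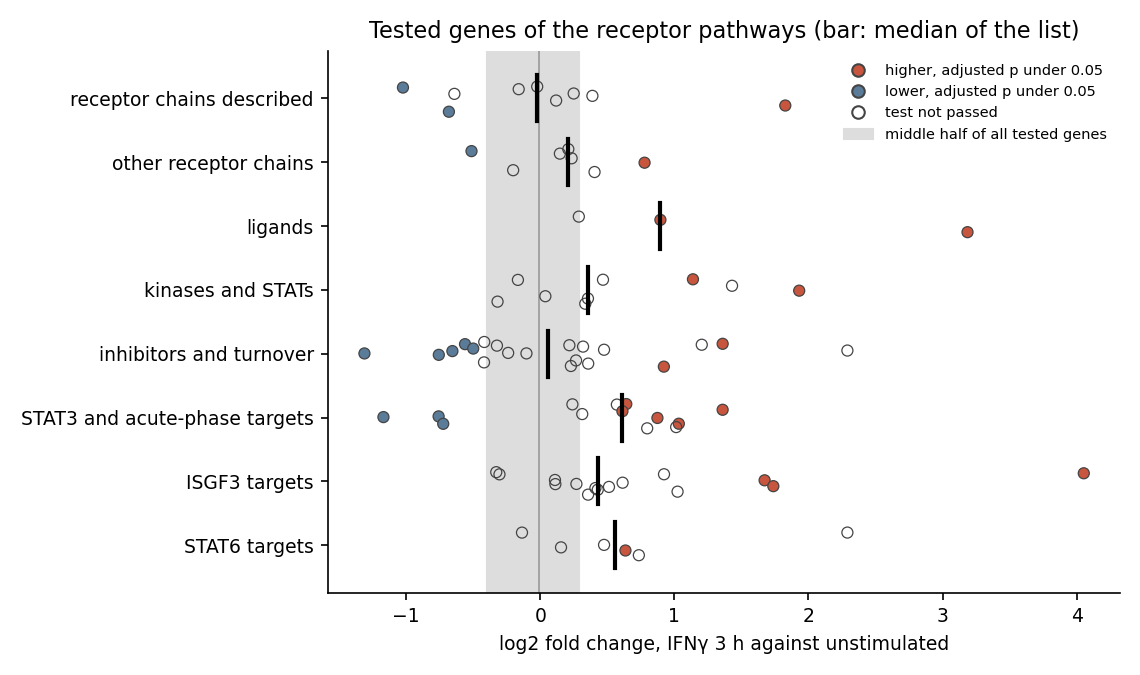
Log2 fold change between IFNγ at 3 h and unstimulated cells of each tested gene, 1 row for the receptor chains described and 1 for each list of related genes (red for higher, blue for lower and open for test not passed), with a black bar at the median and a grey band from the lower to the upper quartile of all tested genes (-0.40 to 0.29). The receptor chains have their median at -0.022, inside the band, and the medians of 5 of the 7 lists lie above it. The lists were chosen with earlier results of these data known and hold 3 to 20 tested genes. No list median is given with the GC and length trend removed.

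Several chains lie side by side, and their values were set against those of the nearest tested genes, 3 on each side. Of 36 such neighbours 1 was higher and 4 were lower by the test, with a median log2 fold change of -0.18. On chromosome 21 IFNAR2 (0.39), IL10RB (0.25) and IFNAR1 (0.12) follow one another and did not pass, and the next gene is IFNGR2, which fell. On chromosome 1 IL22RA1 (-0.02) and IFNLR1 (-0.68) are adjacent, and the other 6 neighbours did not pass. The 4 other neighbours that passed lay beside IL6R and LIFR, and not beside IL4R or IL6ST. RICTOR, between LIFR and the next genes and overlapping the end of OSMR, fell (-1.29, adjusted p = 0.0108), as did WDR70 (-0.61, adjusted p = 0.0324) and, beside IL6R, ATP8B2 (-1.32, adjusted p = 0.0223), while UBE2Q1 rose (0.56, adjusted p = 0.0172, all from edgeR). With the GC and length trend removed RICTOR was -0.61 (edgeR adjusted p = 0.0462), and without IFNγ replicate 1 it was -1.78. ATP8B2 was -0.71 without unstimulated replicate 1 and -1.72 without unstimulated replicate 2. WDR70 was -0.39 with the GC and length trend removed and did not pass, nor did it pass when any 1 library was left out (-0.66 to -0.55), while UBE2Q1 did not pass without unstimulated replicate 1 (0.49).

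**Figure D5:**
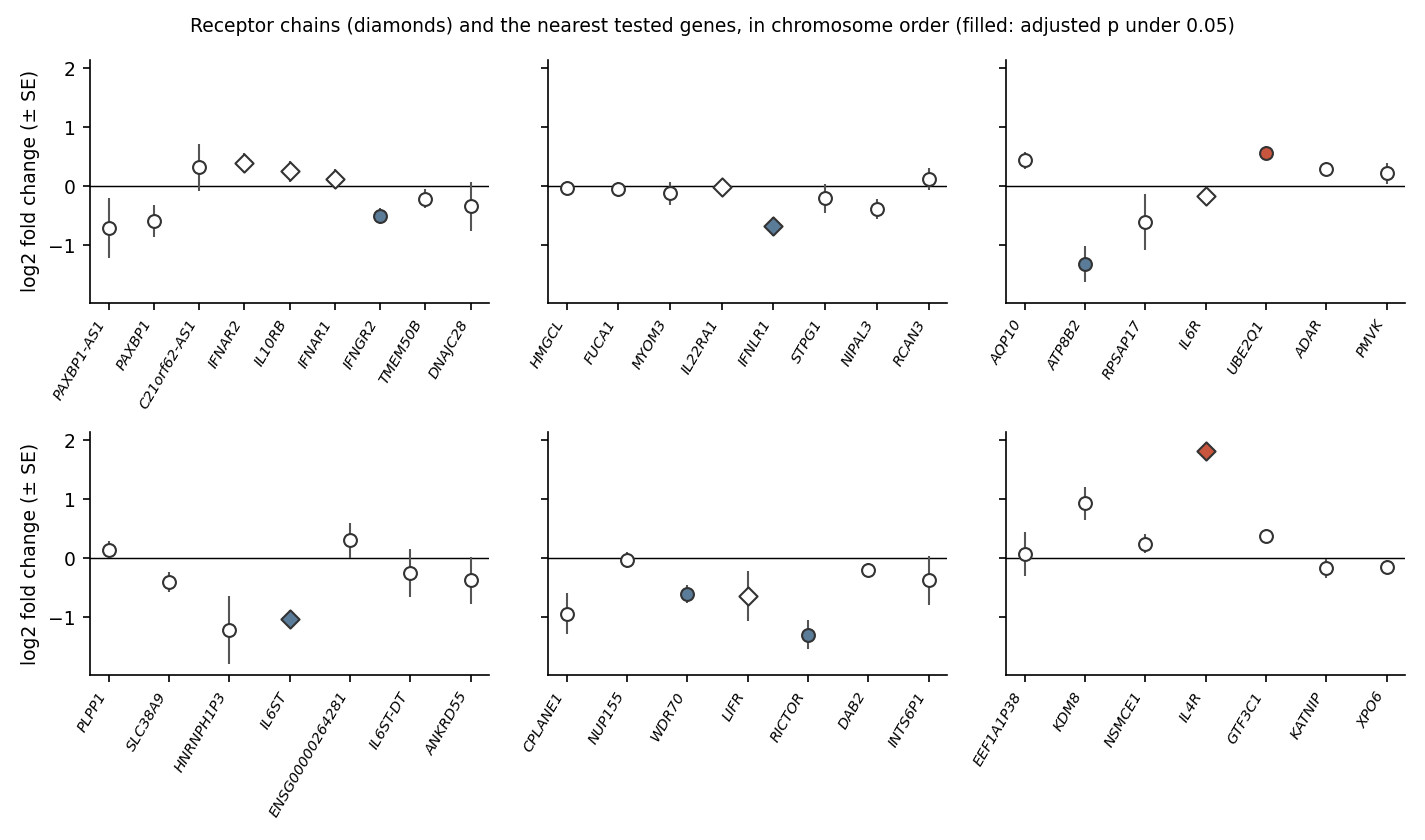
Log2 fold change between IFNγ at 3 h and unstimulated cells (± SE) of the receptor chains (diamonds) and of the nearest tested genes (circles), in the order of their position on the chromosome, 1 panel for each run of neighbouring chains, with filled symbols for an adjusted p under 0.05 (red higher, blue lower). IL4R at 1.83 stands above its 6 neighbours.

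The pattern of IL4R over the 4 libraries was compared with that of 4543 tested genes of like abundance, by the distance between log2 CPM values centred on each gene's mean. The nearest were NCOA5 (distance 0.119), with a log2 fold change of 1.74, MIDN (0.139), with 1.75, and EFNB2 (0.149), with 1.69. All 3 passed edgeR's test (adjusted p = 0.000502, 0.000633 and 0.000629), which follows from choosing them for values like those of IL4R. Likeness over 4 libraries in 2 conditions describes little more than a rise of the same size.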

How the data were processed

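RNA-seq had been carried out on 4 Caco-2 libraries, made from total RNA. The authors deposited read counts per Ensembl gene, one column a library, neither normalized nor pooled. The submitters' processing notes list HISAT 0.5.1 and HTSeq 0.6.1p1. The annotation and the handling of strand for these libraries are not given in the sources used here. Genome build, coordinates, transcript length and GC content refer to GENCODE 44 mapped to GRCh37, and 96.5% of identifiers had a symbol. Promoters are from RefSeq for GRCh38.p14, and coordinates of the builds were not mixed.

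Of 37515 genes, 8158 had 0 counts in all libraries. After edgeR's default filter on low counts (edgeR 4.0.16, R 4.3.3) 14820 genes were scaled by TMM and tested with the quasi-likelihood test, without a block. CPM values are TMM-scaled. The SE of a log2 fold change was its ratio to the root of the F statistic, and pair values used a prior count of 2. The fits were tested on 3 simulated data sets. There the main method recovered 70% of 2-fold and 90.7% of 4-fold changes, and 3.61% of the genes that passed were false. The simulated counts had no GC trend and no effect shared by same-numbered libraries, so they cannot show how the fits behave with either. Alternatives tried were DESeq2 1.42.0, edgeR with DESeq2's size factors, with upper quartiles or with library sizes for scaling, no filter, at least 10 counts in every library, the replicate number as a block, removal of a GC and length trend by loess (with and without the block), and each library left out in turn. The summed length of all exons as gene length, and partner chain differences with the trend removed, were added after the data were seen.

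The 10 receptor chains and all gene lists were chosen with earlier results of these data known. Every chain is named, as are listed genes that passed, the related chains IL13RA1, IL2RG, IFNGR1, IFNGR2, IL10RA, IL20RA, IL20RB, IL11RA and IL27RA, the signalling genes JAK1, JAK2, TYK2, STAT2, STAT3, STAT6, IRF9, SOCS1 and SOCS3, neighbours that passed, and the 3 genes most like the chain with the largest change. A gene that this rule covers was left out of its lists and is not reported here. With 7171455 to 10365346 counts per library and 2 libraries a group, both the depth and the number of libraries limit the precision.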

Additional observations from a re-analysis of the deposited data

How the results depend on the processing

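IL4R rose under every alternative run, with log2 fold changes of 1.64 to 1.87. Of the 10 chains 1 passed higher and 2 lower, and these counts changed as follows. With the GC and length trend removed 1 chain was lower, since IL6ST lost its call, and 895 genes passed lower with 296 called lower. With this and the replicate block 3 chains were higher, as IFNAR1 (0.46, edgeR adjusted p = 0.00346) and IFNAR2 (0.42, adjusted p = 0.0383) passed, IL6ST was -0.32 (adjusted p = 0.0120), and 2717 genes passed higher. The number of chains called lower was 0 under both and under upper quartile scaling. The replicate block alone raised the genes that passed to 2596 higher and 2892 lower, and changed no call of a chain. Deviations of same-numbered libraries correlated (r = 0.415), but the labels give only a number and there are 2 pairs, so the pairing is not known.

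The median log2 fold change of the chains, -0.022, was 0.020 with upper quartile scaling, -0.065 with library size only, -0.0034 with no filter, 0.043 with at least 10 counts in every library, 0.018 with the trend removed and 0.034 with the block as well. The sign also changed for IL22RA1 with upper quartile scaling (0.020) and for LIFR with the trend removed (0.018, and 0.034 with the block), and for ADAM10 under both (0.19). CEBPB (DESeq2 adjusted p = 0.0847), SOCS3 (0.0692) and WDR70 (0.0968) kept their direction with DESeq2 and did not pass. Nor did CEBPB with library sizes for scaling (edgeR adjusted p = 0.0569) or with DESeq2's size factors (edgeR adjusted p = 0.05003). Differences between partner chains with the trend removed, and with the block as well, were 0.047 and 0.032 for IFNAR1 to IFNAR2, 0.15 and 0.13 for IL6R to IL6ST, 1.19 and 1.19 for IL4R to IL13RA1, and 1.31 and 1.31 for IL4R to IL2RG. Without 1 library at a time, 711 to 1146 genes passed higher, 1057 to 1878 passed lower, 554 to 1112 were called lower, 1 to 2 chains passed lower, 0 to 1 were called lower, and the median of the chains was -0.070 to 0.031. IFNAR1 was then -0.070 to 0.29, IL22RA1 -0.064 to 0.031, and LIFR to IL6ST -0.12 to 0.62. The lone library of a group is assumed in these fits to vary like the others. The causes were not tested. With no filter, and without IFNγ replicate 2, edgeR gave infinite prior degrees of freedom and 1 common spread for all genes of like abundance. Depth limits OSMR and LIFR most, and no group had more than 2 libraries.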
